A study of Homo sapiens with 2 samples.

Results

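The interferon response genes are a list of 48 human genes that cells switch on after sensing foreign nucleic acid or receiving an interferon signal, together with the receptors and transcription factors that carry this signal. They were chosen by name, as the probe sets whose platform annotation gave exactly 1 symbol and that symbol was on the list. On the arrays, 46 of the 48 genes had such a probe set, 81 probe sets of 54675 in all. DDX58 and STAT2 had none under these symbols. A gene entered when the mean of its 2 signals reached 49.1, the median of all values, and 40 of the 48 did, among 12531 genes. The other 6 genes with probe sets, DHX58, MX2, RSAD2, IFI44L, CXCL11 and TRIM22, lay below that level. The brightest probe set of all 40 reached it on each array, so none entered through 1 array alone.

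The study compared HCC15 cells that received CTNNB1 siRNA, which silences the beta-catenin gene, with HCC15 cells that received a control siRNA. HCC15 is an established human line of squamous lung cancer per the labels, grown in RPMI medium with 5% serum, and both cultures were collected 48 h after transfection. By its title, the series looked for genes under Wnt control in lung cancer that carries a CTNNB1 mutation. Each group was 1 culture on 1 array, both cultures were of 1 line and both carried an siRNA, and no untransfected culture was analysed here. The control sample's title contains the word Tax, and the target of its siRNA is not given in the labels. With no replicate there was no test, and every difference below compares these 2 arrays only. In such bulk samples, fewer cells that express a gene and less RNA per cell cannot be told apart.

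Type I interferons bind a receptor of the chains IFNAR1 and IFNAR2, whose kinases JAK1 and TYK2 phosphorylate STAT2. It joins IRF9 in a complex that binds the interferon-stimulated response element (ISRE) in promoters. Cytosolic sensors such as IFIH1 start the same programme from double-stranded RNA, through IRF3 and IRF7, and IRF3 can switch on some of the genes, among them the IFIT family, without secreted interferon. Several products, IFIT and OAS proteins among them, bind or are activated by RNA and restrict viruses in epithelial cells of the airway.

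The promoters of a few members are shown because the ISRE is the shared sequence through which these genes are known to respond, and because genes with like letters had unlike ratios on these arrays. They are RefSeq sequences of build GRCh38.p14, from 160 bases before the annotated start to 30 bases after it, and lie for IFIT1 at chr10:89392463-89392652 on the plus strand, IFIT3 at chr10:89327837-89328026 on the plus strand, ISG15 at chr1:1013337-1013526 on the plus strand, ISG20 at chr15:88638856-88639045 on the plus strand, IFITM1 at chr11:313880-314069 on the plus strand, OAS1 at chr12:112906802-112906991 on the plus strand and TRIM21 at chr11:4393673-4393862 on the minus strand. Capitals mark ISRE-like letters, GAAANNGAAA on either strand (TTTCNNTTTC on the other), and overlapping matches run together.
IFIT1: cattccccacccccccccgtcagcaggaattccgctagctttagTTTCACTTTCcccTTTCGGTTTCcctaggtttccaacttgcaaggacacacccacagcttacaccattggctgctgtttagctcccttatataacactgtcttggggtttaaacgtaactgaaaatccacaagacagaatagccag
IFIT3: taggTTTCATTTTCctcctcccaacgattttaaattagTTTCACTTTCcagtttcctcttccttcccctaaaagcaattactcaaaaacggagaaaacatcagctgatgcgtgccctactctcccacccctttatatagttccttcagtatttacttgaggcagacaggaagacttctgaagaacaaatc
ISG15: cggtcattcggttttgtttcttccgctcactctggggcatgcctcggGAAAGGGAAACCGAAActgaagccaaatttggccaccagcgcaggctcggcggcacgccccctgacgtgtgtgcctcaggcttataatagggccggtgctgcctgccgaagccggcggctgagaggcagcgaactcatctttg
ISG20: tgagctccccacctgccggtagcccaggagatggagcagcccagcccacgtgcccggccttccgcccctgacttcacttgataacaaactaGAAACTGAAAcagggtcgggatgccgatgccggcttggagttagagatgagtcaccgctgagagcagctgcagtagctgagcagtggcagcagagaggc
IFITM1: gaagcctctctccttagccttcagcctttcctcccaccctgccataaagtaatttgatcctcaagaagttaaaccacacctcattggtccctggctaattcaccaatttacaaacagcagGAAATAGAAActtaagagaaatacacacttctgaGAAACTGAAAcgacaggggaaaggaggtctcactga
OAS1: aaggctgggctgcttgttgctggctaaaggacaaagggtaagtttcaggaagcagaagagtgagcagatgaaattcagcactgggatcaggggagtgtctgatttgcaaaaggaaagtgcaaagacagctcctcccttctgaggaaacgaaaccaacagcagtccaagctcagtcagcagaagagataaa
TRIM21: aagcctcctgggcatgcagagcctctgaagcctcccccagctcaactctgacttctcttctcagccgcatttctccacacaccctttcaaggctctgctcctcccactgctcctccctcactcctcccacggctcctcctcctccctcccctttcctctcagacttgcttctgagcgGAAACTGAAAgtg

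ISRE-like letters were common in the list. RefSeq windows of 300 bases, from 250 before to 50 after a start, were matched for 35 of the 48 members, and 25 of the 35 (71.4%) held the letters in at least 1 window. Over all 27305 genes with a window, 4.38% did. IFIT1 held matches at positions -116 and -103 from its start, IFIT3 at -156 and -122 of the window shown and ISG15 at -113 and -107, the last pair overlapping. ISG20 held 1 match at -69, and IFITM1 held matches at -40 and -6. TRIM21 held overlapping matches at 18 and 24, after its start, and only the match at 18 is marked because the other runs past the end of the piece shown. OAS1 held none of these letters, which says only that this spelling is not in its window. GAS-like letters, TTCNNNGAA, which read the same on both strands, were in 11 of the 35 members (31.4%), against 9.38% of all genes.

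The median of the list was close to that of all genes, and a few members lay far from it on either side. The median log2 ratio, CTNNB1 siRNA over control siRNA, was 0.16 over the 40 entering members and 0.15 over all 12531 genes, and 20 members lay above the median of all genes and 20 below it. ISG20 and IFIT3 were at least 2-fold higher in CTNNB1 siRNA cells and TRIM21 and OAS1 at least 2-fold lower. The 2 higher genes are 5% of the 40, beside 2.29% of all genes at least 2-fold higher, and the 2 lower genes are 5%, beside 2.38% of all genes. Both lower genes were among 11 members with a mean signal under the 75th percentile of all values. There 264 of 4618 genes were 2-fold lower, against 34 of 7913 at or above it. Both higher genes were among the 29 members at or above it, where 139 of 7913 genes were 2-fold higher. Members past 1.5-fold, a size chosen after the values were seen, numbered 8 higher (20%, beside 11.3% of all genes) and 3 lower (7.5%, beside 7.61%). The 8 were ISG20, IFIT3, IFIT1, IFIT2, IRF9, OASL, SP100 and HERC5, and the 3 were TRIM21, OAS1 and IRF7. At this size 3 members were higher and 5 lower after quantile normalization and after loess, and 4 higher and 5 lower after centring on the median ratio. With these same 3 scalings no member was 2-fold higher and TRIM21 and OAS1 were 2-fold lower. Over all genes the split also moved with the scaling. Centring left 1.30% of genes 2-fold higher and 3.58% lower, and a common median for both arrays 3.77% higher and 1.46% lower. It was 1.67% and 2.26% after quantile normalization, and 1.83% and 2.04% after loess.

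The error of a ratio could be judged only from probe sets of 1 gene, whose log2 ratios had a pooled SD of 0.42 over 5791 genes. This covers probe set and isoform differences and leaves out variation between cultures. Over probe sets with a mean signal of at least 209, the 75th percentile of all values, the SD was 0.29. The SD of 0.42 is thus too small a measure for dimmer probe sets. Of the 40 members, 26 (65%) had ratios smaller in size than 0.42, beside 66.9% of all genes. Among 15 members with several entering probe sets, 7 had all of them above 0, 2 had all below 0, and 6 had both signs. The array-wide ratio also moved with signal, with a median of -0.23 in the dimmest of 10 signal classes and 0.27 in the brightest. Against the median of their own signal class, 19 members lay above and 21 below.

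**Figure D1:**
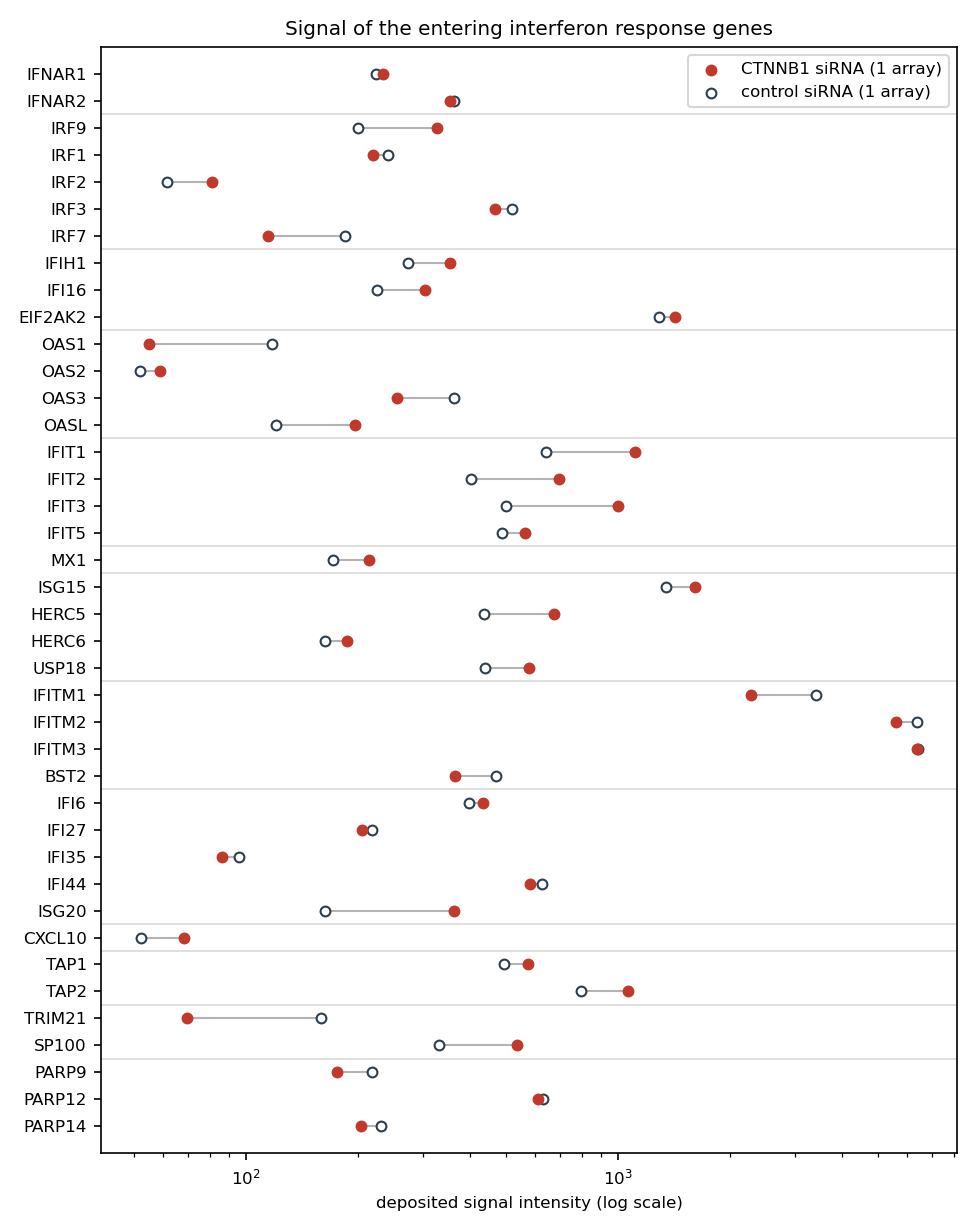
Deposited signal intensity (log scale) of the brightest probe set of each of the 40 entering interferon response genes on the CTNNB1 siRNA array (filled) and the control siRNA array (open), with lines between gene groups by role. IFIT1, IFIT2 and IFIT3 are higher with CTNNB1 siRNA and IFITM1 and IFITM2 lower, and the level of OAS1 is 55 against 118.

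The receptor chains showed little difference. IFNAR1 had a signal of 233 in CTNNB1 siRNA cells and 224 in control siRNA cells (log2 ratio 0.06), and IFNAR2 353 and 362 (-0.04). Both lay within 1 probe set SD of 0. The IFNAR1 probe sets disagreed, because a dimmer one (225669_at) read 84.7 in CTNNB1 siRNA cells against 202 in control siRNA cells (-1.25), while 204191_at read 81.6 and 90.0 (-0.14). The second IFNAR2 probe set (227125_at) read 241 against 188 (0.36).

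Among the transcription factors, IRF9, the DNA-binding part of the interferon-activated complex, was higher, with 327 in CTNNB1 siRNA cells against 200.2 in control siRNA cells, 1.63-fold (0.71). IRF7, the factor that amplifies interferon gene transcription, went the other way with 115 against 185, 1.61-fold lower (-0.69). Both ratios exceed the probe set SD of 0.42, each on 1 probe set, but IRF7 was under the signal level of 209 on both arrays. IRF1, an activator of interferon-gamma responses, read 219 and 241 (-0.14), with -0.20 in its other probe set. IRF2, known as an antagonist of IRF1, read 80.9 and 61.6 (0.39), and IRF3, which is activated by the RNA and DNA sensors, read 467 and 518 (-0.15). The factors of this group thus pointed both ways.

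The nucleic acid sensors were near the level of the control or slightly above it, although EIF2AK2 was at -0.13 after quantile normalization and after loess. IFIH1, the sensor of long double-stranded RNA known as MDA5, had a signal of 355 in CTNNB1 siRNA cells and 273 in control siRNA cells (0.38), although a dim probe set (1555464_at) read 44.3 and 65.7 (-0.57). IFI16, a DNA sensor, read 304 and 225 (0.43), and 199 and 198 in a further probe set (0.01). EIF2AK2, the double-stranded RNA-activated kinase PKR, was the brightest of them with 1423 and 1290.4 (0.14), and 401 and 249 in 204211_x_at (0.69). DHX58, a regulator of the other 2 RNA helicases, was under the floor of 13.8 on both arrays, with 4.3 and 6.3. RIGI, the current symbol of DDX58, lies outside the rule by its name and was added after its values were seen. Its 3 probe sets disagreed, with 198 in CTNNB1 siRNA cells against 215 in control siRNA cells (-0.12), 165 against 151 (0.13), and 101 against 45 (1.16).

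The IFIT genes encode RNA-binding proteins with tetratricopeptide repeats and lie together on chromosome 10. They had the highest median of the list's groups, 0.79. As deposited, 4 of 4 IFIT genes were above 0, beside 64% of all genes. However, IFIT5 was at -0.01 after quantile normalization and after loess. IFIT3 had a signal of 1001 in CTNNB1 siRNA cells against 501 in control siRNA cells, barely at the 2-fold rule (log2 ratio 1.0), and 394 against 244 in its other probe set (0.69). IFIT1, which binds RNA lacking cap methylation, read 1111 against 642, 1.73-fold (0.79). IFIT2, a partner of IFIT1 and IFIT3 in complexes, read 696 against 404, 1.72-fold (0.79), and 157 against 81.3 in 217502_at (0.95). Those 5 probe sets of IFIT1, IFIT2 and IFIT3 lay between 0.69 and 1.0, above the probe set SD of 0.42. IFIT5 stood apart from its neighbours with 563 against 489 (0.20) and 341 against 294 (0.21), close to 0.19, the median of its signal class. Among all 12531 genes, IFIT3 ranked 287 from the top, IFIT1 621 and IFIT2 631.

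The OAS genes, which encode RNA-activated synthetases of 2-5-linked oligoadenylates, split within the family. OAS1 had a signal of 55 in CTNNB1 siRNA cells against 118 in control siRNA cells, 2.14-fold lower (-1.10), and a dimmer probe set under the signal filter read 39.4 and 58 (-0.56). OAS3 read 255 against 363, 1.42-fold lower (-0.51), and OAS2 was dim with 58.8 and 52 (0.18). Its 2 other probe sets lay under the filter, at 25.7 and 26.6, and at 5.9 and 27.8. OASL, a related protein that has lost the synthetase activity and strengthens RIG-I signalling, was 1.63-fold higher, with 196 against 120.5 (0.70) and 140.1 against 100.5 (0.48). OAS1, OAS2 and OAS3 lie in 1 cluster on chromosome 12, where OASL lies elsewhere. OAS1 lost its 2-fold call when both arrays were scaled to a common median (-0.96), and its probe set, of a type that can read related transcripts, is left out where such probe sets are not used.

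MX1, a dynamin-like antiviral GTPase, had a signal of 215 in CTNNB1 siRNA cells and 172 in control siRNA cells (0.32). MX2, its nuclear-pore-associated relative, lay just under the filter with 45 and 51. Viperin, encoded by RSAD2, a radical SAM enzyme that makes a chain-terminating nucleotide, read 37.3 against 53.1 and 32.3 against 48.8 in its 2 dim probe sets. The levels of MX2 and RSAD2, both known as strongly interferon-induced, were thus near or below 49.1, the median of all values, in both cultures.

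All 4 genes of the ISG15 system were above 0 as deposited, beside 64% of all genes. However, ISG15 itself was at -0.02 after quantile normalization and -0.01 after loess. ISG15, the ubiquitin-like modifier, was bright with 1607 in CTNNB1 siRNA cells and 1344 in control siRNA cells (0.26), close to 0.28, the median of its signal class. HERC5, the ligase that attaches ISG15, was 1.54-fold higher with 673 against 436 (0.63). Its relative HERC6 read 188 against 163 (0.20), and USP18, the protease that removes ISG15 and restrains the receptor, 577 against 440.4 (0.39). Of these, HERC5 alone exceeded the probe set SD of 0.42 as deposited, and it was at 0.41, under that SD, after quantile normalization and after loess.

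The IFITM genes, which encode small membrane proteins that block virus fusion and lie together on chromosome 11, were the brightest members and lay at or below 0 as deposited, although IFITM3 was at 0.13 with both arrays scaled to a common median. IFITM1 had a signal of 2286 in CTNNB1 siRNA cells against 3404 in control siRNA cells, 1.49-fold lower (-0.57), when the median of its signal class was 0.27. IFITM2 read 5593 and 6354 (-0.18) and IFITM3 6376 and 6409 (-0.01). Their probe sets, of the types _s_at and _x_at, can take signal from the other genes of this closely related family, so the 3 values are not independent. A further probe set annotated to 2 of them was left out. BST2, or tetherin, which holds budding virus at the cell surface, read 365 and 469 (-0.36). With BST2, 4 of 4 genes of this group lay below the median of all genes, whereas 4 of 4 IFIT genes lay above it.

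**Figure D2:**
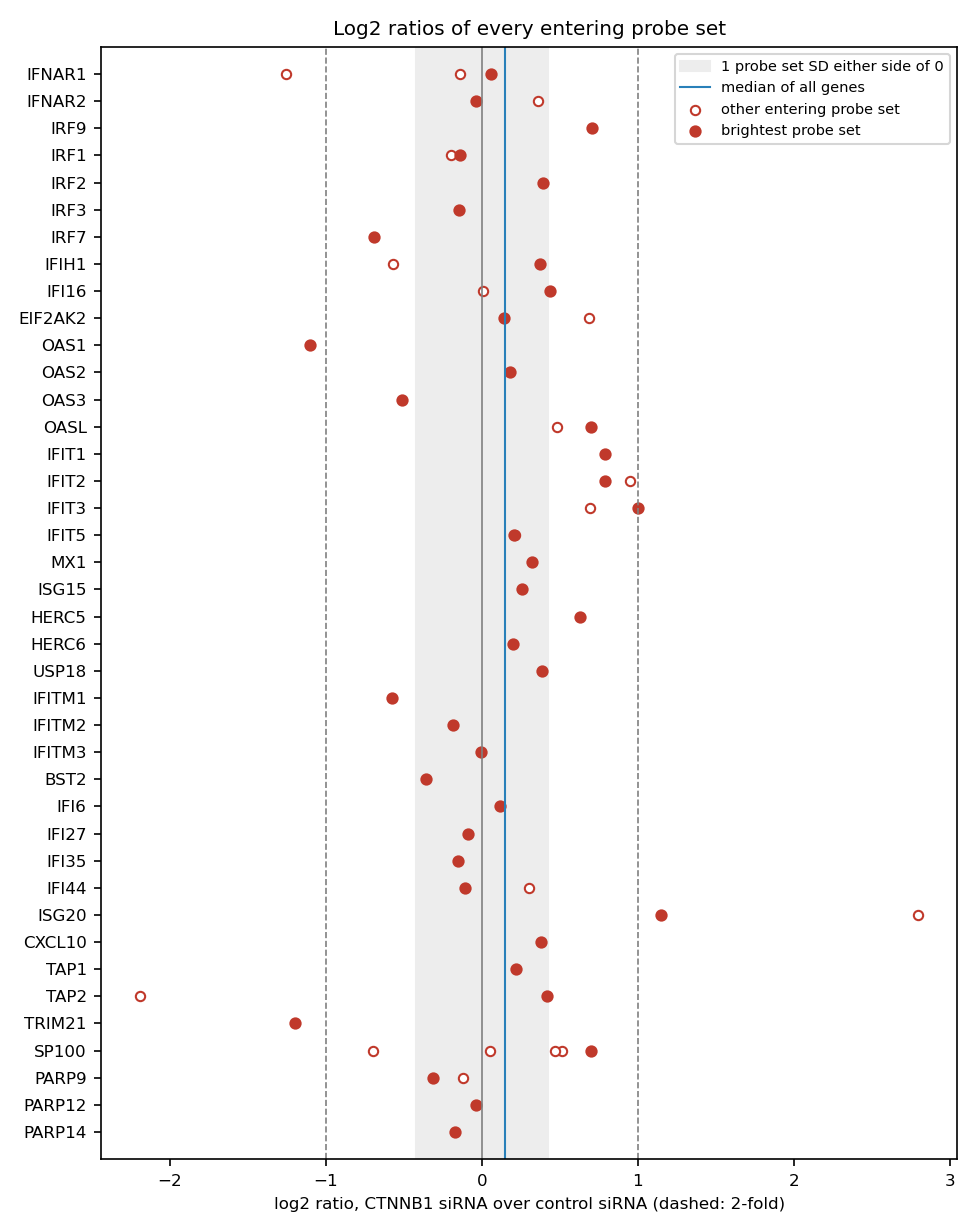
Log2 ratio, CTNNB1 siRNA over control siRNA, of each entering probe set of the 40 genes, with the brightest probe set of a gene filled and the others open. The shaded band is 1 probe set SD (0.42) either side of 0, the blue line the median of all genes (0.15) and the dashed lines 2-fold, and the open circles of ISG20, TAP2 and IFNAR1 show how far probe sets of a gene can differ.

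ISG20, an exonuclease that degrades single-stranded RNA, had the highest ratio of the list. Its brighter probe set (33304_at) read 362 in CTNNB1 siRNA cells against 163 in control siRNA cells, 2.22-fold higher (1.15). The other (204698_at) read 205 against 29.5, 6.95-fold higher (2.80), so both pointed the same way but with different sizes. ISG20 ranked 165 from the top among all genes. With loess its log2 ratio was 0.99, just under the rule, and the median of both probe sets was 1.97.

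The other genes named for their induction by interferon were close to 0. IFI6, a small protein of mitochondria and endoplasmic reticulum, read 433 in CTNNB1 siRNA cells and 399 in control siRNA cells (0.12). IFI27, a marker of interferon exposure in blood and epithelia, read 206 and 219 (-0.09), and IFI35 86.1 and 95.9 (-0.16). IFI44 read 582 and 626 (-0.11), and 162 and 131 in its dimmer probe set (0.30). All 4 lay within the probe set SD. IFI44L, a neighbour of IFI44 on chromosome 1, was among the dim genes with 13.2 and 24.3.

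CXCL10, a chemokine that attracts T cells, was near the filter with 68.2 in CTNNB1 siRNA cells and 52.4 in control siRNA cells (0.38). CXCL11, which binds the same receptor, read 17.8 and 17.1, and 1.2 and 3.4 in a second probe set, at about the floor or below it.

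The subunits of the transporter that carries peptides to class I molecules had slightly higher signals in their brightest probe sets. TAP1 read 575 in CTNNB1 siRNA cells and 494 in control siRNA cells (0.22), and TAP2 1063 and 794 (0.42). A dim TAP2 probe set (204769_s_at) read 25.3 against 115.5 (-2.19), the largest disagreement among probe sets of a member. With the median over its 2 entering probe sets TAP2 had a log2 ratio of -0.89, so its direction rests on the choice of probe set.

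TRIM21, a cytosolic antibody receptor and ubiquitin ligase, had the lowest ratio of the list. Its single probe set read 69.6 in CTNNB1 siRNA cells against 159.6 in control siRNA cells, 2.29-fold lower (-1.20), and ranked 161 from the bottom of all genes. TRIM22, an antiviral ligase whose gene is also on chromosome 11, was dim, with 11.1, under the floor, against 39.8. SP100, a component of nuclear bodies, was 1.63-fold higher in its brightest probe set, with 537 against 330.0 (0.70). Its next 2 probe sets read 389 against 273 (0.51) and 117 against 84.8 (0.47), but the dimmer ones read 81.3 and 78.3 (0.05) and 51 and 82.9 (-0.70). The probe sets of SP100 thus disagreed, the brighter ones lying above 0.

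The ADP-ribosyltransferases of the list lay slightly below 0 as deposited, although PARP12 was at 0.10 with a common median. PARP9, a partner of the ligase DTX3L, read 176 in CTNNB1 siRNA cells and 218 in control siRNA cells (-0.31), and -0.12 in its other probe set. PARP12 read 611 and 628 (-0.04), and PARP14 204 and 230.2 (-0.17). None exceeded the probe set SD.

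**Figure D3:**
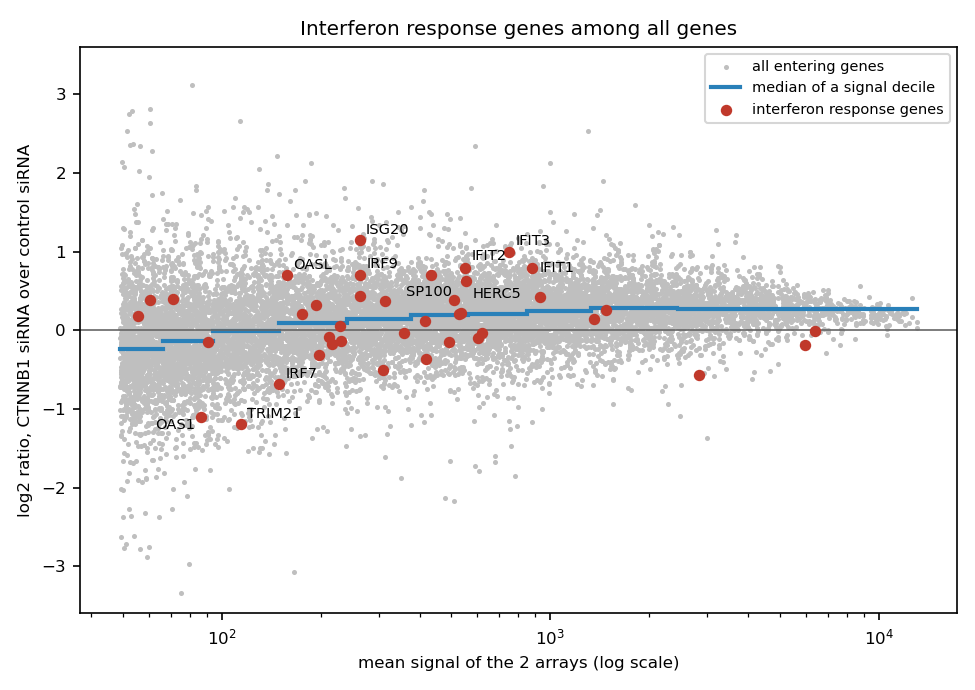
Log2 ratio, CTNNB1 siRNA over control siRNA, against the mean signal of the 2 arrays (log scale) for 12531 genes (grey), with the 40 interferon response genes in red and those past 1.5-fold named. Blue segments are the medians of 10 signal classes, which run from -0.23 to 0.28, and most of the red points lie inside the cloud of all genes.

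Members with and without the ISRE-like letters had similar median ratios. Of 31 entering members with a promoter window, 23 held the letters and had a median log2 ratio of 0.14, from -1.20 (TRIM21) to 1.15 (ISG20), with 13 above 0 and 10 below. The 8 without them had a median of 0.13, from -1.10 (OAS1) to 0.71 (IRF9), with 5 above 0 and 3 below. The ranges overlapped. Both the 3 highest ratios of the 31, those of ISG20, IFIT3 and IFIT1, and the lowest, that of TRIM21, were of genes with the letters, which most of the 31 held. IFIT2 had no window and is not among the 31. Over all genes, 249 of 400 with the letters and 6419 of 9813 without them lay above 0, with medians of 0.14 and 0.16. Members with GAS-like letters had a median of -0.15 over 10 genes, and those without of 0.20 over 21, with overlapping ranges and no test. Over all genes, 559 of 864 with the GAS-like letters and 6109 of 9349 without them lay above 0, with medians of 0.15 and 0.16.

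**Figure D4:**
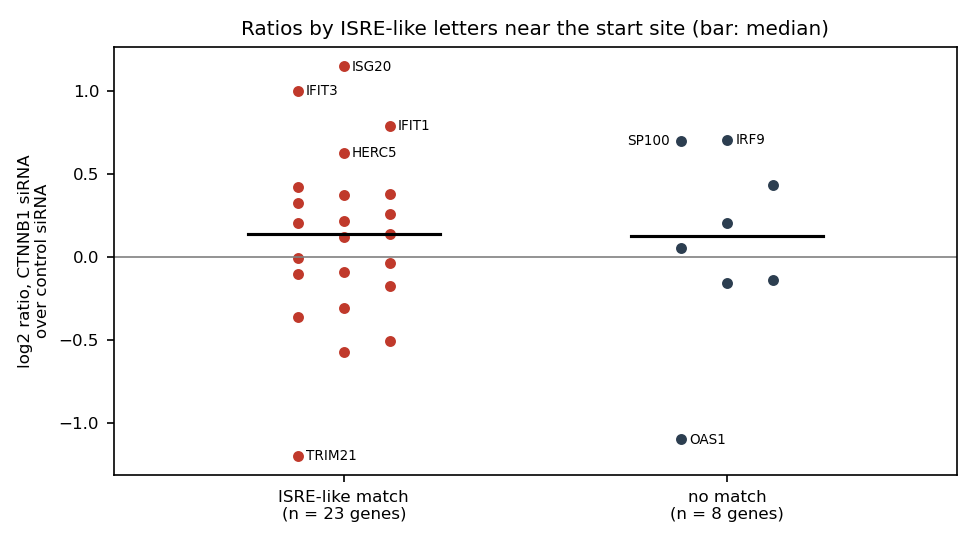
Log2 ratio, CTNNB1 siRNA over control siRNA, of the 31 entering members that have a RefSeq promoter window, for 23 genes with and 8 genes without ISRE-like letters. Bars are medians, 0.14 and 0.13, and the ranges of the groups overlap.

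Other genes of the pathway were taken from a list of 96, of which 68 entered. Their median log2 ratio was 0.18, with 2 genes at least 2-fold higher (SOCS3 and JAK2) and 2 at least 2-fold lower (CMPK2 and IFNL2). Over all genes, 2.29% were at least 2-fold higher and 2.38% at least 2-fold lower, so these counts were near the share of all genes. Of the 68, IFNL2, GBP1 and SAMD9L reached the level of 49.1 on the control siRNA array only, so their lower ratios rest partly on the filter. The ligand genes were dim. IFNB1, the gene of interferon beta, read 5.9 in CTNNB1 siRNA cells and 3.2 in control siRNA cells, both under the floor of 13.8. Of 21 ligand genes 4 entered, and some of the others had no probe set with a single symbol. The interferon lambda gene IFNL2 read 32.1 in CTNNB1 siRNA cells, under that level, against 80.6 in control siRNA cells, 2.51-fold lower (-1.33). The remaining 3 were the lambda gene IFNL1, named after its values were seen, with 76 and 72.1 (0.08), and IFNA17 and IFNA14, close copies in 1 gene family, with -0.71 and -0.50. The IFNA17 and IFNA14 probe sets, of the type _x_at, can take signal from related genes of that family.

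Among other receptor, JAK and STAT genes all 8 that entered had ratios above 0, beside 64% of all genes as deposited, and 7 of the 8 lay above the median of all genes. The 1 below it falls under 0 after centring on the median ratio. Against the median of their own signal class, 6 of the 8 lay above and 2 below. JAK2, a kinase of the interferon-gamma receptor, read 134 in CTNNB1 siRNA cells against 60.8 in control siRNA cells, 2.2-fold higher (1.14). JAK1, the kinase shared by the interferon receptors, was bright with 3238 against 2021 (0.68), and IFNGR2 read 1039 against 729 (0.51). This list had a median of 0.30. Among 10 negative regulators, SOCS3, an inhibitor of JAK signalling, was 2.38-fold higher with 194 against 81.5 (1.25), and PIAS1 (0.47) and PTPN11 (0.34) followed. Their median was 0.14, and SOCS3 was the only one of the 10 past 2-fold.

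The remaining sensors, adaptors and kinases had a median of 0.13 over 12 genes, and none passed 2-fold. IRF5 (-0.68), the kinase gene IKBKE (-0.66) and STING1 (0.65), the adaptor of DNA sensing, had the largest ratios. Of 11 class I antigen presentation genes, with a median of 0.22, the immunoproteasome subunit gene PSMB8 led with 321 in CTNNB1 siRNA cells against 185 in control siRNA cells (0.79), before HLA-C (0.45) and TAPBP (0.37). The 23 further interferon-stimulated genes had a median of 0.18. CMPK2, a mitochondrial nucleotide kinase gene, was 2.2-fold lower with 76.1 against 167 (-1.14), PNPT1, a mitochondrial exonuclease gene, read 2352 against 1216 (0.95), and the GTPase gene GBP1 37.9 against 62.7 (-0.73). Each of these lists thus had members on both sides of 0.

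The targeted transcript was lower on the array labelled CTNNB1 siRNA. Its brightest probe set read 339 in CTNNB1 siRNA cells against 1224 in control siRNA cells (-1.85), and the others had -0.97 and -0.13. Epithelial markers were bright in both cultures, all 5 of 5 entering, with summed signals of 23923 and 22336. The sums hide that CDH1 was 1.58-fold lower in CTNNB1 siRNA cells, with 593.7 against 939.3 (-0.66). KRT8 (0.10), KRT18 (0.11), KRT19 (0.26) and EPCAM (0.39) lay above 0. Squamous markers were mixed: 4 of the 8 with a probe set entered. In CTNNB1 siRNA and control siRNA cells these were SFN (5008.7 and 5471.8), PERP (3968.9 and 3189), S100A2 (126.4 and 103.6) and SOX2 (41.6 and 60.1). KRT5 (9.8 and 34.4), KRT14 (6.7 and 25), DSG3 (37.5 and 8.8) and PKP1 (3.1 and 7.1) did not enter. TP63 and KRT6A had no probe set with a single symbol. Leukocyte markers were dim, with a summed signal of 138 in CTNNB1 siRNA cells and 177 in control siRNA cells over 5 genes. CD14, the only one of the 5 to enter, read 80.3 and 67.1 (0.26), PTPRC read 3 and 25.9, and NKG7 was under the floor on both arrays. Fibroblast markers, 3 of 6 entering, summed to 327 and 414, and endothelial markers, 1 of 4 entering, to 136 and 158. The 3 fibroblast genes were COL1A1 with 80.3 in CTNNB1 siRNA cells and 162.5 in control siRNA cells (-1.02), COL1A2 with 61.4 and 58.1 (0.08), and DCN with 86.6 and 80.5 (0.11). The part of these differences in the interferon response genes was not tested.

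**Figure D5:**
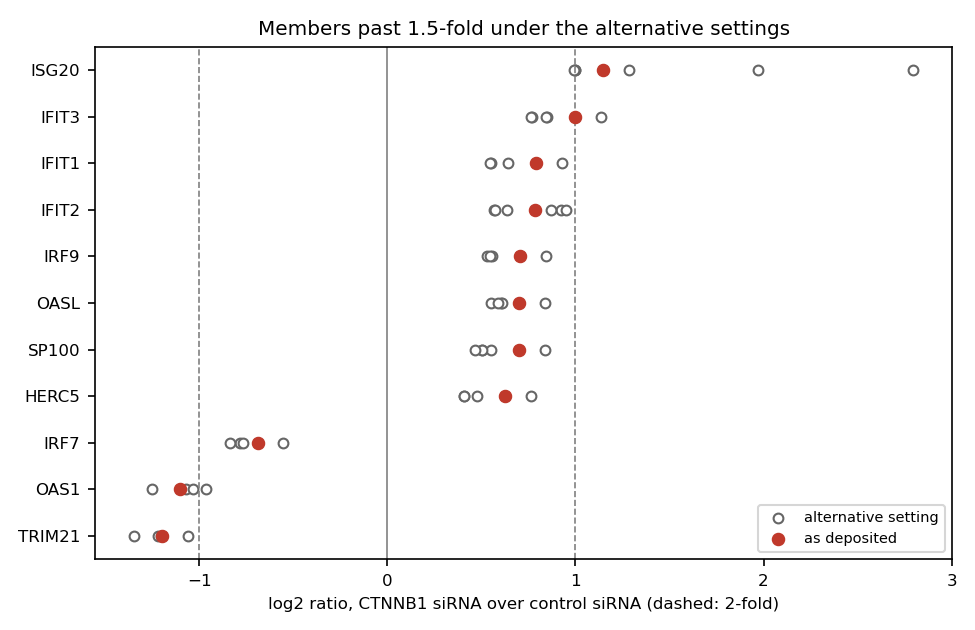
Log2 ratio, CTNNB1 siRNA over control siRNA, of the 11 members past 1.5-fold, as deposited (filled) and under up to 10 alternative settings (open), with dashed lines at 2-fold. All 11 kept their direction in every setting in which they entered. Having been picked for large ratios, they could hardly change sign, so this is no measure of stability. ISG20 ran from 0.99 to 2.80 and IFIT3 from 0.76 to 1.14.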

How the data were processed

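Gene expression was measured on 2 biotin-labelled expression arrays, 1 a group. The deposited values were signal intensity on a linear scale, 1 a probe set and array (54675 probe sets), made by the authors with MAS5 per the submitters' processing notes. The version of MAS5 and its scaling are not stated there. The number of arrays limits the precision.

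Gene symbols came from the platform annotation held by GEO (41097 with 1 symbol, 1801 with several, 11777 not listed). Symbols were brought to RefSeq names through the Entrez number for 41043 of the 41097. Log2 ratios were taken as deposited with a floor of 13.8, which is the 25th percentile over both arrays. A gene took its entering probe set of highest mean signal. Every member is named, and of each other pathway list up to 3 entering genes of largest ratio, with IFNB1. A gene that the naming rule also held is not reported here. With 1 array a group there was no test, and genes were called at 2-fold. Motif letters were counted in RefSeq promoters (GRCh38.p14). Protein sequences were not used here. The steps ran in Python 3.11.15 (numpy 2.4.6, pandas 2.3.3, statsmodels 0.14.6) and were tested on simulated data. The 10 alternatives covered scaling, floor, filter and the choice of probe set. Members and lists were chosen with earlier results of these data known.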

Additional observations from a re-analysis of the deposited data

How the results depend on the processing

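Counts of members past a fold moved with the processing, and the cause was not tested. As deposited, 2 members were at least 2-fold higher and 2 lower. The number higher was 0 after quantile normalization, loess and centring on the median ratio, and 1 with the median over probe sets. The number lower was 1 with both arrays scaled to a common median and 1 without probe sets ending in _x_at and _s_at, 0 with the filter at the 75th percentile, which leaves 29 members, and 4 when each gene took its most extreme probe set (IFNAR1, OAS1, TAP2 and TRIM21). At 1.5-fold, added after the data were seen, 8 members were higher as deposited, against 3 after quantile normalization, 4 after centring and 3 after loess. The 3 lower members became 5 after quantile normalization, centring and loess, without a filter and when each gene took its most extreme probe set, 0 under the 75th percentile filter and 1 without _x_at and _s_at probe sets.

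The median of the members was -0.05, against -0.03 for all genes, after quantile normalization, and 0.29 against 0.29 with a common median. Under the 75th percentile filter it was 0.14 against 0.23, with 12 of 29 members above the median of all genes. Without _x_at and _s_at probe sets it was 0.32 over 29 members, against 0.11 over all genes. Of 378 values of single members under the alternatives, 370 moved by less than the probe set SD and 8 by more, those of ISG20, IFIH1, TAP2, IFNAR1 and EIF2AK2 with another choice of probe set. Many of the 370 could not have moved. The floor at the median and both changes of filter returned the ratios as deposited. For the 25 members with 1 entering probe set, the choice of probe set had no effect. A common median and centring each shifted all members alike, by less than that SD. The 370 are thus no measure of stability. No member past 2-fold changed sign, but members picked for such large ratios could hardly do so. Alternatives with other replicates or a paired design could not be run with 1 array a group.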
